A study of Mus musculus and Macaca mulatta with 39 samples.

Results

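The mark H3K4me2 was compared between frontal and occipital cortex of C57BL6J mouse embryos at E17.5, late in the birth of cortical neurons. The comparison uses 4 lists of called regions, 2 for Embryonic Frontal Cortex and 2 for Embryonic Occipital Cortex, out of 39 samples in the series. The members are loci, made by merging the overlapping autosomal regions of these 4 lists. Of 79427 such loci, 35248 held a region in all 4 lists, and these are the ones tested. The series followed 2 histone marks through formation of the cortex in mouse and rhesus by chromatin immunoprecipitation and sequencing (ChIP-seq), in which antibody-bound chromatin is sequenced and enriched stretches are called as regions. Per the series' design text the replicates are biological ones. No label names a transgene, a mutation or a treatment for either area, and the labels do not say how many embryos went into a replicate. All 4 samples were crosslinked with formaldehyde and precipitated with the same H3K4me2 antibody. Each is a piece of tissue, so that fewer cells carrying the mark and a weaker mark per cell cannot be told apart.

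H3K4me2 is a dimethylation of histone H3 that marks promoters and enhancers. It is laid down at enhancers before and during their use, so that it shows regulatory sequence open to a cell type, while H3K27ac, an acetylation of the same histone, goes with activity at the time. The cerebral cortex is a sheet that is divided into areas along its front-to-back axis. Graded transcription factors set up in progenitors, and later the neurons' own programmes, give frontal (motor and association) and occipital (visual) cortex different gene activity. The files give positions on mm9 and no gene names, and the gene table at hand is of GRCm38.p6, another build, so loci are given by position and no marker gene could be used to check the dissected tissue.

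The lists differed in length, and occipital replicate 2 stood apart from the other three. On autosomes the frontal lists held 48440 regions over 101.6 Mb (replicate 1) and 41812 regions over 87.2 Mb (replicate 2). The occipital lists held 52839 regions over 109.4 Mb (replicate 1) and 74660 regions over 157.6 Mb (replicate 2). The mean was 94.4 ± 10.1 Mb in frontal and 133.5 ± 34.1 Mb in occipital cortex (SD, n = 2 each), with an exact two-sided permutation p of 0.333, the smallest that 2 lists against 2 allow. Region width barely differed, with medians of 1425 and 1475 bp in the frontal lists and 1400 and 1425 bp in the occipital lists. The lists did not group by area for occipital cortex in either mark, nor for frontal cortex in H3K27ac. By base-pair Jaccard index, the length shared over the length in either list, the H3K27ac list labelled occipital replicate 1 was closest to frontal replicate 2 (0.654), then to frontal replicate 1 (0.567), and least like occipital replicate 2 (0.523). The frontal H3K27ac lists had an index of 0.531 with each other, and 0.490 and 0.500 with occipital replicate 2, which was thus low with every list. It was also the shortest H3K27ac list, at 125.9 Mb. Occipital replicate 1 covered 157.1 Mb, and frontal replicates 1 and 2 covered 167.8 and 155.5 Mb. The part of list length in these indices was not tested. Among the H3K4me2 lists the index was 0.775 within frontal cortex and 0.651 within occipital cortex. It was 0.729 for frontal replicate 1 with occipital replicate 1, 0.687 for frontal replicate 2 with occipital replicate 1, and 0.587 and 0.526 for these frontal lists with occipital replicate 2. Occipital replicate 1 was thus closer to both frontal lists than to occipital replicate 2 in H3K4me2 as well.

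The lists were largely nested. The frontal list of replicate 1 had 87.6% of its length inside occipital replicate 1 and 94.4% inside occipital replicate 2. For frontal replicate 2 these shares were 91.8% and 96.8%. In the other direction 81.3% and 73.2% of occipital replicate 1 lay inside frontal replicates 1 and 2, and 60.9% and 53.6% of occipital replicate 2. Loci held by all 4 lists made up 90.5% and 95.8% of the length of the frontal lists, and 86.9% and 72.0% of that of the occipital lists. Loci in occipital replicate 2 alone numbered 20822 and had a median span of 800 bp, against 2575 bp for loci held by all 4.

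**Figure D1:**
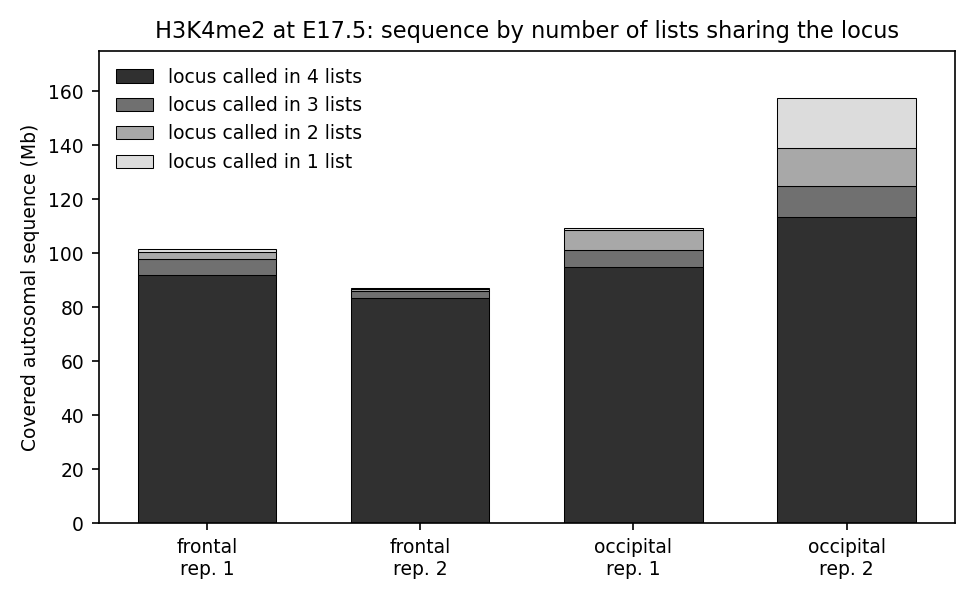
Covered autosomal sequence in Mb (vertical axis, from 0) of each of the 4 H3K4me2 lists, divided by the number of lists in which the locus was called. The darkest part, loci called in all 4 lists, is 91.9 and 83.6 Mb in the frontal lists and 95.1 and 113.5 Mb in the occipital lists, so most of the extra length of occipital replicate 2 lies at loci that fewer lists share.

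Because of these lengths, each locus was scored in each list by the bp its regions cover per Mb of that list's own autosomal total. On this scale the median locus called in all 4 lists was higher in frontal cortex by 0.32 (log2, frontal minus occipital). A larger share of the occipital lists lies outside these loci, as given above. With each list scaled to its length within these loci instead, the median difference was 0.084. The part of that share in the shift was not otherwise tested. Differences are therefore given as they stand and relative to the median of 0.32. The middle 50% of loci lay between -0.26 and 0.14 relative to the median, and 87 loci were more than 1 above it against 1486 more than 1 below it.

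A minority of the shared loci differed between the areas. Of 35248 loci tested, 361 were higher in frontal cortex (1.02%) and 676 lower in frontal and higher in occipital cortex (1.92%), together 2.94% (limma on log2 covered bp per Mb of the list, Benjamini-Hochberg adjusted p below 0.05, n = 2 lists per area). In this fit a locus's own replicate spread had no weight, so its SE and p rest on the spread common to loci of similar mean. The values of the areas did not overlap at 357 of the 361 and 655 of the 676. Over all tested loci they did not overlap at 55.2%, with frontal higher, and at 9.32%, with occipital higher. In plain covered bp, with no scaling, frontal values lay above occipital values without overlap at 258 of the 361 loci (71.5%, against 5.77% of all tested loci), and occipital values above frontal ones at 669 of the 676 (against 42.1% of all tested loci). Calls were made on the same covered bp, so the shares without overlap are partly set by the choice and are no separate support.

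The number of calls depended on the scaling and on single lists. With the difference centred on its median, a choice made after seeing the data, 119 loci were higher in frontal and 1826 in occipital cortex, and with covered bp unscaled limma called no locus, while 4899 had an unadjusted p below 0.05. The counts, frontal-higher and then occipital-higher, were 11 and 73 without frontal replicate 1, 18 and 70 without frontal replicate 2, 14308 and 2233 without occipital replicate 1, and 836 and 968 without occipital replicate 2.

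**Figure D2:**
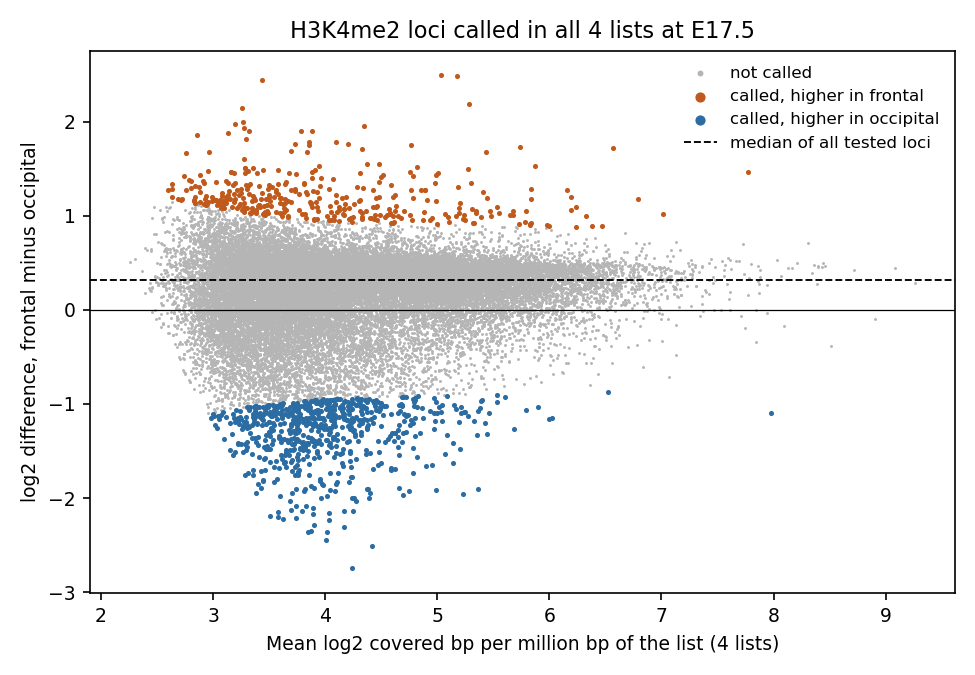
Each point is a locus called in all 4 lists, with its mean log2 covered bp per Mb of the list (horizontal axis) and its log2 difference, frontal minus occipital (vertical axis). The dashed line is the median difference of 0.32, the 361 loci called higher in frontal cortex lie above it, and the 676 called higher in occipital cortex lie below 0.

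The locus with the largest difference towards frontal cortex was on chromosome 4, from 23752026 to 23760550. Regions covered 8475 and 6325 bp of it in the frontal lists, against 2275 and 1450 bp in the occipital lists. Both frontal lists covered most of the locus, and both occipital lists a small part of it. Per Mb of the list this was 78.0 ± 7.72 in frontal and 15.0 ± 8.20 in occipital cortex (SD, n = 2 each), a log2 difference of 2.49 with SE 0.29 (limma adjusted p = 4.42e-14). Set against the median locus it was 2.17. Next stood a pair of nearby loci on chromosome 1. That from 56980876 to 56989625 was covered over 7400 and 8750 bp in the frontal lists and over 1625 and 2475 bp in the occipital lists, a log2 difference of 2.48 with SE 0.29 (limma adjusted p = 4.42e-14). The frontal values were well clear of the occipital ones, as in the locus before. Its neighbour from 56964676 to 56969200 was covered over 4525 and 1250 bp in the frontal lists, against 600 and 625 bp in the occipital lists (difference 2.44, SE 0.32, limma adjusted p = 4.84e-11). Here the frontal replicates stood far apart, and the occipital replicates close together at a single short region each. The SE and p do not take in this spread.

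On chromosome 14 the locus from 49281376 to 49289925 was covered over 8550 and 7125 bp in the frontal lists and over 1875 and 3050 bp in the occipital lists. The replicates of each area were close, at 82.9 ± 1.76 bp per Mb in frontal and 18.2 ± 1.57 in occipital cortex, a log2 difference of 2.19 (SE 0.28, limma adjusted p = 4.73e-11). A second locus of that chromosome, from 118448451 to 118452650, had 3950 and 3600 bp in the frontal lists and 1250 and 1475 bp in the occipital lists (difference 1.95, SE 0.29, limma adjusted p = 2.63e-08). At both loci the frontal lists covered most of the span, and the occipital lists kept shorter regions there.

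The rest of the 10 were mostly short. On chromosome 16 from 97356176 to 97358650 the regions covered 1525 and 2350 bp in the frontal lists and 675 and 525 bp in the occipital lists. On chromosome 4 from 153959876 to 153961925 they covered 1650 and 1975 bp in the frontal lists and 550 and 725 bp in the occipital lists. On chromosome 10 from 43606651 to 43608525 the values were 1725 and 1850 bp in frontal and 550 and 775 bp in occipital lists. In each of these the occipital lists held a single region of under 800 bp. On chromosome 18 the locus from 76381451 to 76384200 had 2625 and 2725 bp in the frontal lists and 1025 and 975 bp in the occipital lists. The log2 differences of these 4 loci were between 1.90 and 2.15, with limma adjusted p of at most 1.36e-06. The last of the 10, on chromosome 10 from 79775001 to 79780100, was covered over 5100 and 575 bp in the frontal lists and over 675 and 550 bp in the occipital lists. Its difference of 1.97 (limma adjusted p = 1.19e-06) was that of frontal replicate 1 alone, since frontal replicate 2 lay below occipital replicate 1 in bp. With limma's robust prior this locus did not pass (limma adjusted p = 0.479).

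Towards occipital cortex the 10 largest differences lay between -2.75 and -2.22. The largest was on chromosome 7 from 76632326 to 76639225, covered over 750 and 625 bp in the frontal lists and over 6750 and 6075 bp in the occipital lists. The occipital lists covered nearly the whole locus and the frontal lists a stub, near the 500 bp of the shortest region in each list. Per Mb of the list this was 7.28 ± 0.154 in frontal and 50.1 ± 16.4 in occipital cortex (SD, n = 2 each), a log2 difference of -2.75 with SE 0.29 (limma adjusted p = 4.27e-16). Set against the median locus it was -3.06. On chromosome 5 from 133001026 to 133008225 the values were 1425 and 500 bp in the frontal lists and 6250 and 7200 bp in the occipital lists (difference -2.51, SE 0.29, limma adjusted p = 8.82e-14). On chromosome 14 from 26553801 to 26558800 they were 600 and 700 bp in the frontal lists and 4825 and 5000 bp in the occipital lists (difference -2.44, SE 0.30, limma adjusted p = 1.85e-12). In these loci both occipital replicates lay at a similar height. The same held on chromosome 5 from 111439951 to 111445250, with 700 and 825 bp in the frontal lists and 5300 and 5175 bp in the occipital lists, and from 37288801 to 37292475, with 575 and 500 bp in the frontal lists and 3300 and 3675 bp in the occipital lists.

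In the other 5 of the 10 the occipital replicates differed from each other, though both lay above the frontal lists. On chromosome 13 from 99916126 to 99923200 regions covered 825 and 550 bp in the frontal lists and 3275 and 7075 bp in the occipital lists. On chromosome 1 from 57903326 to 57911250 they covered 650 and 550 bp in the frontal lists and 2300 and 7925 bp in the occipital lists, and on chromosome 6 from 52806951 to 52815250 they covered 600 and 625 bp in the frontal lists and 2275 and 8300 bp in the occipital lists. The longer value was that of replicate 2 in each. On chromosome 15 from 78463876 to 78469775 the values were 775 and 525 bp in the frontal lists and 3175 and 5900 bp in the occipital lists, and on chromosome 4 from 154561501 to 154568525 they were 750 and 675 bp in the frontal lists and 3100 and 7025 bp in the occipital lists. In these 5 loci occipital replicate 1 held 2 separate regions where replicate 2 held 1. The log2 differences of these 5 lay between -2.36 and -2.23, with limma adjusted p of at most 1.67e-10.

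**Figure D3:**
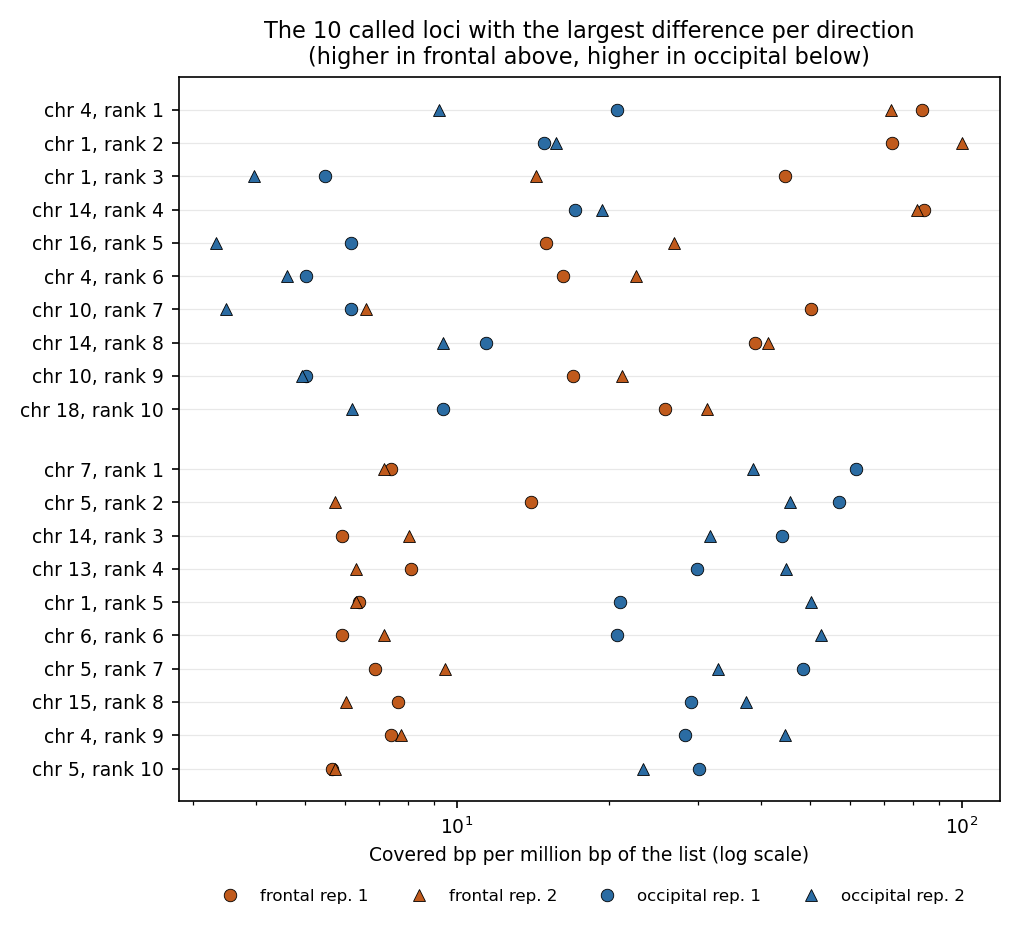
Covered bp per Mb of the list (log axis) in each of the 4 lists at the 10 called loci with the largest difference per direction, in order of rank, with orange for frontal, blue for occipital, circles for replicate 1 and triangles for replicate 2. In each row the orange and blue points do not overlap, and on the chromosome 10 locus of rank 7 frontal replicate 2 (6.59) lies next to occipital replicate 1 (6.17).

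These 20 loci were chosen for large differences without overlap, and their calls did not all hold under every setting. With covered bp unscaled none of the 20 passed the limma threshold, and in a fit over all 8 mouse H3K4me2 lists with 200 bp added 3 passed and 17 did not. Scaling to the length within the shared loci left 15 past it, leaving out frontal replicate 2 left 14, leaving out frontal replicate 1 left 17 of 19 with a value, and leaving out occipital replicate 2 left 15 of 16. With equal region numbers 7 of the 20 had a value, and all 7 passed. With equal covered length 1 had a value, and it did not pass.

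None of the 5 longest shared loci was called, and their differences relative to the median lay between -0.71 and 0.13. The longest, on chromosome 8 from 87251876 to 87327050, was covered over 66650 and 61200 bp in the frontal lists and over 72750 and 73900 bp in the occipital lists, a log2 difference of 0.28 with SE 0.22 (limma adjusted p = 0.402). The frontal lists broke it into 5 and 7 regions and the occipital lists into 2 and 1. A locus on chromosome 18 from 69714726 to 69786525 had 44600 and 42750 bp in the frontal lists and 59025 and 71800 bp in the occipital lists (difference -0.10, SE 0.22, limma adjusted p = 0.776). On chromosome 13 from 78300251 to 78355200 regions covered 32925 and 27375 bp in the frontal lists and 54850 bp in each of the occipital lists. There a single region filled the locus in both occipital lists, while the frontal lists held 4 and 6 separate regions. The log2 difference was -0.39 with SE 0.23, and -0.71 relative to the median, which did not pass the test (limma adjusted p = 0.376). The remaining loci of these 5, at 109184726 to 109250625 of chromosome 12 and at 6783026 to 6835775 of chromosome 6, had differences of 0.45 and 0.43 (limma adjusted p = 0.354 and 0.376).

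At the called loci most of the shorter stretches lay inside the longer ones. These loci were called on the same covered lengths, so high shares there are partly set by the choice and are no separate sign of nesting. At the 361 loci higher in frontal cortex, the frontal lists covered 94.3% and 81.0% of the span and the occipital lists 45.2% and 64.7%. Nearly all of the shorter occipital stretches lay within the frontal ones: 99.2% and 96.3% of the length of occipital replicate 1 fell inside frontal replicates 1 and 2, and 95.2% and 91.6% of that of occipital replicate 2. At the 676 loci higher in occipital cortex, the frontal lists covered 26.4% and 20.4% of the span and the occipital lists 61.7% and 98.5%. Here 94.0% and 93.8% of the length of frontal replicates 1 and 2 fell inside occipital replicate 1, and 99.3% and 99.6% inside occipital replicate 2. Over all tested loci these shares were near the same, at 92.8% and 94.9% inside occipital replicate 1 and 97.1% and 98.2% inside occipital replicate 2. The share of occipital length inside the frontal lists was 89.7% and 83.4% over all tested loci for occipital replicate 1, and 78.6% and 72.3% for occipital replicate 2. The shares at the frontal-higher loci were higher, but those loci were chosen for high frontal coverage. Over all tested loci the lists covered 78.1% and 71.1% (frontal) and 80.8% and 96.5% (occipital). Breaks within a locus differed between the lists. Occipital replicate 1 had several regions at 30.0% of the occipital-higher loci, against 4.32% of all tested loci, and occipital replicate 2 at 1.18%, against 0.565%. Frontal replicates 1 and 2 had several at 14.3% and 7.54% of these loci, against 4.00% and 4.24% of all tested loci. At the frontal-higher loci the shares were 1.385% and 8.86% in the frontal lists and 11.9% and 12.7% in the occipital lists.

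The directions also differed in locus length. Frontal-higher loci had a median span of 2525 bp, close to the 2575 bp of all tested loci, and occipital-higher loci one of 4112.5 bp. Among 12254 loci over 1000 and up to 2000 bp long, 1.11% were higher in frontal and 0.0979% in occipital cortex. Among 7431 loci over 4000 and up to 8000 bp long they were 0.848% in frontal and 4.09% in occipital cortex. Among 1703 loci over 8000 bp they were 1.64% in frontal, the highest of the 5 length classes, and 3.41% in occipital cortex, so neither share moved 1 way throughout. The shortest region was 500 bp in each of the 4 lists. Every tested locus thus held at least 500 bp in each list, which bounds the difference that a short locus can reach. The part of locus length and of this floor in the counts of calls was not tested. Each of the 19 autosomes held calls of both directions, from 0.536% (chromosome 11) to 1.76% (chromosome 14) of its tested loci higher in frontal cortex, and from 1.29% (chromosome 8) to 2.69% (chromosome 16) higher in occipital cortex.

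Some called loci had another within 100 kb, centre to centre. Of the 676 occipital-higher loci, 139 (20.6%) had another such locus that near, and 31 (4.59%) had a frontal-higher one. Of all 35248 tested loci, 9.16% had an occipital-higher locus that near and 4.96% a frontal-higher one. Of the 361 frontal-higher loci, 36 (9.97%) had another frontal-higher locus within 100 kb, and 30 (8.31%) an occipital-higher one. Windows of 1 Mb with several calls were picked after their values were seen, and of 2264 windows with tested loci 5 held at least 3 frontal-higher loci and 7 at least 4 occipital-higher ones. Chromosome 5 from 132000001 to 133000000 held 7 occipital-higher loci and no frontal-higher one among 52 tested, with a median of -0.58 relative to all loci. In it, the locus from 132807576 to 132815875 was covered over 1400 and 1200 bp in the frontal lists and 5650 and 8300 bp in the occipital lists, and the locus from 132960826 to 132963625 over 725 and 525 bp in the frontal lists and 2675 and 2800 bp in the occipital lists. The chromosome 5 locus of rank 2 begins just beyond this window. Chromosome 1 from 195000001 to 196000000 held 5 occipital-higher loci among 24 tested, and chromosome 17 from 86000001 to 87000000 held 5 among 31. The window from 64000001 to 65000000 of chromosome 14 held calls of both directions, 2 frontal-higher and 4 occipital-higher among 33.

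The 5 windows with at least 3 frontal-higher loci lay on chromosomes 4, 1, 2 and 8. The window from 24000001 to 25000000 on chromosome 4 held 4 of them among 12 tested, and the window before it 3 among 9, the locus of rank 1 included. In the window of 12 loci, the locus from 24167676 to 24177250 was covered over 9575 and 8700 bp in the frontal lists and 3575 and 4125 bp in the occipital lists, and that from 24139776 to 24148025 over 8250 and 6425 bp in the frontal lists and 3550 and 2850 bp in the occipital lists. The windows from 106000001 to 107000000 of chromosome 2 and from 48000001 to 49000000 of chromosome 8 held 3 each, among 18 and 25 tested. On chromosome 1 the window from 56000001 to 57000000 held 3 frontal-higher loci among 5 tested, the pair of ranks 2 and 3 and the locus between them. That locus, from 56973126 to 56978425, was covered over 4950 and 2125 bp in the frontal lists and 1375 and 3750 bp in the occipital lists, so that its bp overlapped between the areas.

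Loci held by 1 area alone were many more in occipital cortex, where the lists were longer. Both frontal lists and neither occipital list held 628 loci, and both occipital lists and neither frontal list held 7990. The frontal ones were short, with a median of 775 bp covered and 2 of 628 covered over 2000 bp or more, against a median of 1000 bp and 449 of 7990 (5.62%) in occipital cortex. When every list was cut to its 41812 widest regions, the length of the shortest list, the counts were 2323 in frontal and 2709 in occipital cortex. With equal covered length, widest regions first, they were 4756 in frontal and 335 in occipital cortex, so the direction of this contrast differed with the way list length was made equal. The count of frontal loci was 1209, 2419 and 2422 without frontal replicate 1, frontal replicate 2 or occipital replicate 2, and that of occipital loci 12650 without frontal replicate 1 and 28853 without occipital replicate 1. Leaving out a list loosens the condition, so such counts are bound to rise, apart from changes in merging.

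The loci of 1 area named next were picked for the most covered bp, so they are long by choice. In frontal cortex the first was on chromosome 1 from 56991101 to 56996750, covered over 3950 and 3125 bp in the frontal lists and listed at 0 in both occipital lists. It follows the locus of rank 2 on that chromosome. In occipital cortex the longest was on chromosome 7 from 76121226 to 76129150, listed at 0 in both frontal lists and covered over 6175 and 7925 bp in the occipital lists. It lies before the chromosome 7 locus of rank 1. The next, on chromosome 13 from 78119376 to 78126575, was listed at 0 in both frontal lists and covered over 5600 and 7075 bp in the occipital lists. It lies before the long chromosome 13 locus that the frontal lists broke into pieces. Both occipital replicates were high at these loci, whereas at the following ones, at 62774301 to 62783075 of chromosome 1 and at 67666151 to 67675725 of chromosome 14, the occipital lists covered 2450 and 8775 bp of the first and 1525 and 9575 bp of the second, with replicate 2 far above replicate 1.

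H3K27ac lists of the same tissues were not used to choose the loci and give a readout of their own, although the marks of a replicate share an input. At the 361 loci with more H3K4me2 in frontal cortex, H3K27ac regions covered 63.5% and 70.4% of the span in the frontal lists, and 73.0% and 35.9% in the occipital lists. Over all tested loci these shares were 63.2% and 65.5% in the frontal lists and 66.7% and 58.5% in the occipital lists. Occipital replicate 2 alone was low, and occipital replicate 1 was at the height of the frontal lists. At the 676 occipital-higher loci H3K27ac covered 64.5% and 67.6% in the frontal lists and 68.4% and 68.9% in the occipital lists. Both occipital lists lay above both frontal lists there, by little, and occipital replicate 2 stood furthest above its own share over all tested loci. The median log2 difference in H3K27ac, frontal minus occipital and relative to all tested loci, was 0.22 at frontal-higher and -0.02 at occipital-higher loci. At frontal-higher loci it was 0.00404 without occipital replicate 2 and 0.593 without occipital replicate 1. The permutation test used the medians of the 4 lists, whose difference between areas was 0.31 at frontal-higher and -0.04 at occipital-higher loci. Its exact two-sided p was 1 for each class, where 0.333 is the smallest possible. A limma fit of H3K27ac over the same loci, added after seeing the data, called 0% of 35248 loci, with 888 at an unadjusted p below 0.05.

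At single loci the H3K27ac lists varied. At the chromosome 4 locus of rank 1, H3K27ac covered 6125 and 8525 bp in the frontal lists and 8525 and 525 bp in the occipital lists. At the chromosome 14 locus from 118448451 to 118452650 it covered 3650 and 4000 bp in the frontal lists and 4075 and 0 bp in the occipital lists. Occipital replicate 2, the shortest H3K27ac list, was the lowest of the 4 lists at 7 of the 10 frontal-higher loci of largest difference. It was the lowest at 1 of the 10 occipital-higher ones. The share over all tested loci was not counted. At the chromosome 7 locus of rank 1 towards occipital cortex, H3K27ac covered 0 and 775 bp in the frontal lists and 850 and 5500 bp in the occipital lists. At the occipital locus on chromosome 13 from 78119376 to 78126575 it was listed at 0 in both frontal lists and in occipital replicate 1, and covered 5300 bp in occipital replicate 2. The chromosome 15 locus from 78463876 to 78469775 was covered over its whole 5900 bp by H3K27ac in all 4 lists, while its H3K4me2 was far shorter in frontal cortex. The part of the resemblance of occipital replicate 1 to the frontal H3K27ac lists in these comparisons was not tested.

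**Figure D4:**
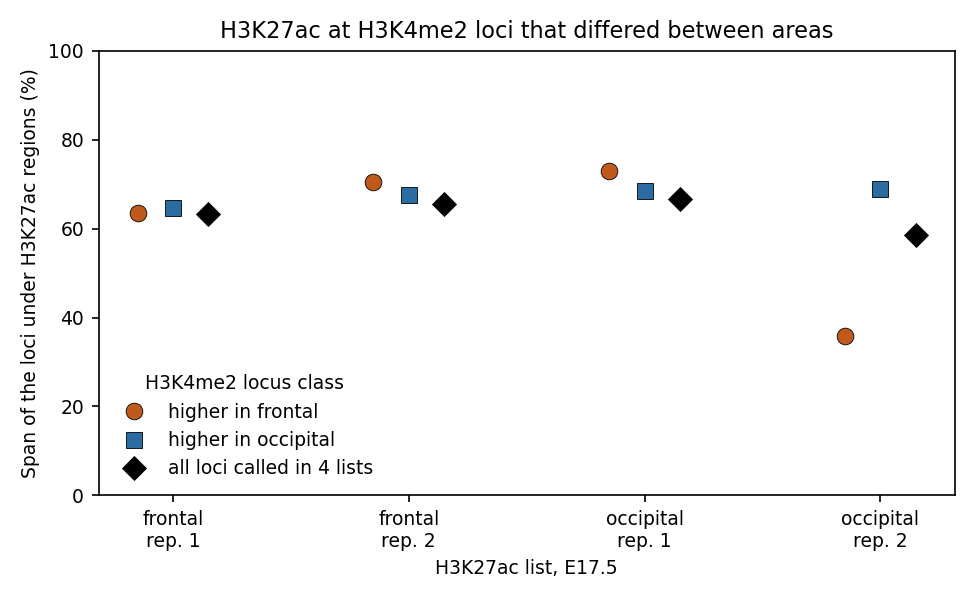
Percent of the span of the loci under H3K27ac regions (vertical axis, from 0 to 100) in each E17.5 H3K27ac list, for loci with more H3K4me2 in frontal cortex (361, circles), more in occipital cortex (676, squares) and all tested loci (35248, diamonds). Occipital replicate 2 has 35.9% at the frontal-higher loci, and the other three lists 63.5% to 73.0%.

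Earlier H3K4me2 lists were also unused in choosing the loci. Of the frontal-higher loci, 49.9% held a region in all 4 lists of E11.5 and E14.5 cortex, and of the occipital-higher loci 21.7%, against 66.0% of all tested loci. In none of the 4 earlier lists were 15.0% of the frontal-higher, 16.4% of the occipital-higher and 6.73% of all tested loci. By length, the earlier lists covered 41.0% and 59.6% (E11.5) and 39.4% and 59.5% (E14.5) of the span of the frontal-higher loci, below the 51.1% and 68.0%, and 52.0% and 69.3%, of all tested loci. Of the occipital-higher loci they covered 12.6% and 29.2% at E11.5 and 10.7% and 30.9% at E14.5. These last shares lay around the 26.4% and 20.4% of the E17.5 frontal lists and below the 61.7% and 98.5% of the occipital lists. The earlier replicates differ in length, and replicate 1 was the lower at both ages in each class. The earlier values also depend on a locus's length, which differed between the directions, and the part of length was not tested.

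**Figure D5:**
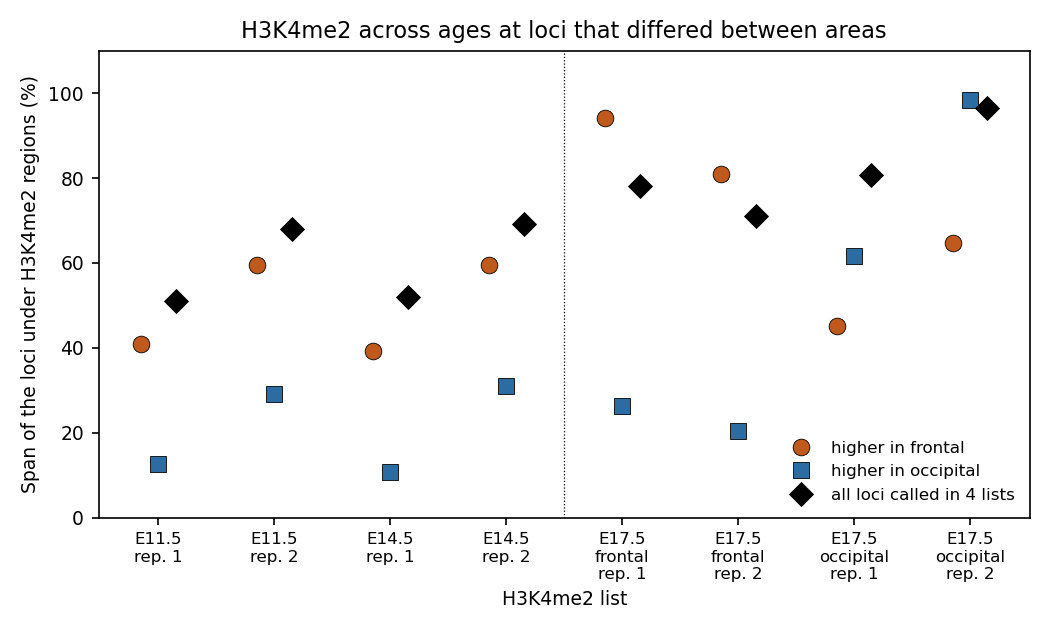
Percent of the span of the loci under H3K4me2 regions (vertical axis) in the E11.5 and E14.5 lists and the 4 E17.5 lists, for frontal-higher loci (361, circles), occipital-higher loci (676, squares) and all tested loci (35248, diamonds). The E17.5 lists right of the dotted line chose the classes, and the earlier lists left of it did not, where occipital-higher loci lie between 10.7% and 30.9% and frontal-higher loci between 39.4% and 59.6%.

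Named loci had varied histories. The chromosome 14 locus from 49281376 to 49289925 had 8550 bp in both E11.5 lists, then 8176 and 8450 bp at E14.5, as in the E17.5 frontal lists and unlike the occipital ones. The chromosome 16 locus from 97356176 to 97358650 was listed at 0 in all 4 earlier lists, and so was the chromosome 1 locus from 56964676 to 56969200. The neighbouring chromosome 1 locus of rank 2 was listed at 0 in both E11.5 lists. At E14.5 it had 1325 and 1450 bp. On the occipital side, the chromosome 7 locus of rank 1 had 1225 and 5425 bp at E11.5 and 775 and 1700 bp at E14.5, and the chromosome 13 locus from 99916126 to 99923200 had 4125 and 4200 bp at E11.5 and 0 and 1075 bp at E14.5. The long chromosome 13 locus from 78300251 to 78355200 had 46875 and 50975 bp at E11.5 and 44975 and 48925 bp at E14.5, between the frontal and the occipital lists of E17.5. Of loci held by 1 area alone, 61.5% of the frontal and 64.2% of the occipital ones were in none of the earlier lists. This share was 6.73% for loci called in all 4 lists. Those are longer, with a median span of 2575 bp, against 925 bp for the frontal and 1225 bp for the occipital loci. The share over all merged loci was not counted, and the part of locus length was not tested.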

How the data were processed

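Region lists of 8 mouse H3K4me2 and 4 E17.5 H3K27ac samples were used. The deposited files hold chromosome, start and end, without header, count or score. The submitters' processing notes list Bowtie 0.12.9 and the builds mm9 and hg19, without a role. The sources used here do not name the region caller or its threshold. Lists end at 61342430 on chromosome 19, and positions, written 1-based, were taken as mm9. Depth is unknown, so no counting intervals are given. Overlapping or touching autosomal regions were merged. The log2 covered bp per Mb of the list was fitted with limma 3.58.1 (lmFit, eBayes with a trend) in R 4.3.3. The prior degrees of freedom were infinite, so a locus's own replicate spread has no weight. Calls are at adjusted p below 0.05. Named loci are the 10 called loci without overlap and with the largest difference per direction, the 5 longest, and the longest held by 1 area alone. Members and lists were chosen with earlier results of these data known. H3K27ac medians used 200 bp added. The fit was tested on simulated data. Planned gene lists were not run. Python 3.11.15, numpy 2.4.6 and pandas 2.3.3 were used. Alternatives were other scalings, list lengths, pseudocounts, filters, merging, variance models, the replicate block and leaving out each list. Centring on the median difference, the robust prior, dropping calls that overlap, the H3K27ac fit and H3K27ac at equal length were added after seeing the data.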

Additional observations from a re-analysis of the deposited data

How the results depend on the processing

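Read depth is unknown, and list length stands in its place. As reported, 361 loci were frontal-higher and 676 occipital-higher. Each other setting made its own calls over the loci it tested, so its counts are not parts of these. Scaled to the length within shared loci, the counts were 45 and 411. They were 126 and 781 with each list centred on its median (13.9% frontal, against 34.8% as reported). With the difference centred on its median they were 119 and 1826, and with equal region numbers 353 and 1682. Adding 200 bp gave 291 and 398, and adding 1000 bp gave 52 and 34. With 200 bp added as well, loci in at least 2 lists gave 753 and 5519, and loci in any list 512 and 2136. All 8 lists in the fit, also with 200 bp added, gave 6 and 4. Unscaled bp and equal covered length gave 0 and 0 by limma (unadjusted p below 0.05 at 4899 and 2332 loci). Leaving out a list gave 11 to 14308 and 70 to 2233. Other settings kept both within 1.5 times. The replicate block gave 134 and 260. Deviations of same-numbered lists correlated at -0.0822 across loci, which cannot show whether these samples share embryos or handling. The labels give them only a number in common. Loci of 1 area numbered 628 and 7990, 2323 and 2709 with equal region numbers, and 4756 and 335 with equal length. Without a list, where the condition is looser, they numbered 818 to 2422 and 9026 to 28853. The H3K27ac median at frontal-higher loci (0.22) was 0.0454 with equal covered length, and 0.00404 to 0.593 without a list; that at occipital-higher loci was -0.0697 to 0.00151 without a list. The mean Jaccard index within areas exceeded that between areas by 0.0809, and by at least 0.0719 under the 3 alternatives, but in each the occipital pair (0.651 as reported, 0.618 with equal length) lay below both pairs of occipital replicate 1 with a frontal list (0.729 and 0.687, 0.750 and 0.690 with equal length). Beyond this looser condition, the cause of the changes between settings was not tested.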
